A study of Mus musculus with 4 samples.

Results

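Paternally expressed imprinted genes are genes that most mouse tissues transcribe from the chromosome inherited from the father. The group described here is a list of 32 such genes, chosen by name. Its probes were found by matching the accession printed for each array probe to RefSeq gene symbols, which gave 49 probes for 30 of the 32 genes, among 39409 probes and 19748 named genes on the array. Snurf, the upstream reading frame of the Snrpn transcript, and Zim3, a zinc finger gene, had no probe by this match and were not analysed here. The samples were female mouse embryonic stem cells (ESCs), 2 arrays of parthenogenetic haploid ESCs (lines 1 and 2) and 2 arrays of parthenogenetic diploid ESCs (lines 1 and 2). Line numbers are used as replicate numbers below. Parthenogenetic cells develop from an egg without a sperm, so every chromosome of both groups is maternal. Haploid ESCs hold a single chromosome set and tend to double it in culture. The labels give no strain, passage, culture medium, feeder layer or sort by DNA content, and whether equal line numbers in the 2 groups mark a common origin is not stated.

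Genomic imprinting rests on DNA methylation laid down in the egg or the sperm at imprinting control regions. At most loci of this list the egg's methylation silences the maternal copy, so cells with only maternal chromosomes are known to express these genes weakly where the imprint is kept. At the Igf2 and Dlk1 loci the sperm carries the methylation, and the unmethylated maternal copy transcribes a neighbouring noncoding RNA in place of the growth regulator. Sfmbt2, Gab1 and Slc38a4 are known for another kind of imprint, seen mainly in extraembryonic tissue, which depends on histone methylation. ZFP57, a zinc finger protein that keeps imprints in the early embryo, binds the methylated hexamer TGCCGC.

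Start-site windows of 280 bases (250 before and 30 after the annotated start) were read from RefSeq's promoter table (build GRCm38.p6) for 25 of the 32 genes. These 25 genes have 38 windows in all. Impact is not among them, so no window of Impact entered the counts for the list. The windows below are those of Plagl1 and Slc38a4, which had the most positive and the most negative difference among the genes tested, of Mest, and of the start that Snrpn shares with Snurf. All are written 5′ to 3′ on the gene's strand, and capitals mark TGCCGC or its reverse complement GCGGCA, searched on both strands. Slc38a4 has 3 annotated starts, and its most upstream one is shown.
Plagl1, chr10:13090582-13090861, + strand: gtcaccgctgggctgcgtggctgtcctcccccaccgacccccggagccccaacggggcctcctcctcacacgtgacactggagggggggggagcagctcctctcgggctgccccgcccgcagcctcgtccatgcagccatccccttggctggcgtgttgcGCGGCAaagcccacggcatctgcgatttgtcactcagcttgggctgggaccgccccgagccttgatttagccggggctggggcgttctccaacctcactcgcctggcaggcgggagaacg
Mest, chr6:30737800-30738079, + strand: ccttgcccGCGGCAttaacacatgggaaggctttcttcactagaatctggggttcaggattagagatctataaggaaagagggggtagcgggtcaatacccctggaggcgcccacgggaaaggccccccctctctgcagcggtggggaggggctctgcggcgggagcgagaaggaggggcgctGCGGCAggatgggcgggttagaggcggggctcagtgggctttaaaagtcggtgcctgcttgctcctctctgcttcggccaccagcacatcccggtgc
Snrpn and Snurf, chr7:60005170-60005449, - strand: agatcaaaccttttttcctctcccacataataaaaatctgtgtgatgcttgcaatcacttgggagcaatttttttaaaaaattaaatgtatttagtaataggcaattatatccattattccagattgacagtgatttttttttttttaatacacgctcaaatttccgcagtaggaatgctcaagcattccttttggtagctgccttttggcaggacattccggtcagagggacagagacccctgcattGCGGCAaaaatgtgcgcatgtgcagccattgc
Slc38a4, chr15:97055927-97056206, - strand: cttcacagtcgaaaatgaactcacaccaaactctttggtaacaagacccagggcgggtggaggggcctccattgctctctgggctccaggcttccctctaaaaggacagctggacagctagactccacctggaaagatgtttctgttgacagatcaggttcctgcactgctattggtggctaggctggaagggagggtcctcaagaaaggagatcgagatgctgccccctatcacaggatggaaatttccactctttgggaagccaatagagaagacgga
The hexamer occurred 2 times in this Mest window, once each in the Plagl1 and the Snrpn windows, and not in the letters shown for Slc38a4. Of the 38 windows, 8 (21.1%) held it, in 7 genes. Snrpn and Snurf share an identical window, which was counted for each gene. A further Mest window covers nearly the same bases as the one shown. The counts given here were not reduced for such repeats. Over all genes 10.4% of 32851 windows held the hexamer. The windows over all genes were not filtered by chromosome, so the list's windows, without Impact, were not selected in the same way. The windows of the list were also richer in CpG, with a median of 10.5 CpG sites against 6 over all windows. Among windows with at least 10 CpG sites the hexamer was in 6 of 21 (28.6%), against 20.7% of all such windows. A match describes the letters only, and binding and methylation were not measured here.

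RNA was measured on 4 one-colour Agilent arrays that shared 1 slide and 1 scan. The 75th percentile of the processed signal was 526 and 553 intensity units on the haploid arrays and 617 and 907 on the diploid arrays. All 10 ESC markers examined lay well above background, by the scanner software's mark, on each of the 4 arrays. Array precision is limited by the number of arrays. In these bulk samples fewer cells that express a gene and less RNA per cell cannot be told apart, and values scaled to each array's 75th percentile say nothing of the RNA content per cell.

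Most genes of the list gave a signal in these cultures, whose ESCs hold only maternal chromosomes. No ESCs with paternal chromosomes were measured, so these signals cannot be called weak or strong for ESCs, and the state of the imprints was not tested. One probe stood for each gene, the brightest on average of those past the filter below, or of all its probes where none passed. By Agilent's mark for a spot well above background, 24 of the 30 genes were detected on all 4 arrays, which is 80.0% of those measured, against 62.6% of all named genes. Of the 49 probes, 35 were detected on all 4 arrays, 7 on some arrays and 7 on none. Among the 20 measured genes tied to a methylated egg allele 17 were detected on all 4 arrays. The same held for 4 of the 7 whose paternal copy is the methylated one and for all 3 with the histone-based imprint. A probe's brightness also depends on its sequence, so levels of different genes are not set against each other.

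Mcts2, a retrogene copy of a translation factor gene, had processed signals of 7918 and 8056 units on the haploid arrays and 8315 and 9962 on the diploid arrays. Its parent gene Mcts1 is closely similar, and the files used here hold no probe sequences, so signal from the parent could not be separated. Impact, an inhibitor of the kinase GCN2, had 4075 and 3956 units in haploid cells, against 2998 and 5512 in diploid cells. Mest, a protein of the alpha/beta hydrolase fold, was printed as 10 spots of its main probe, which averaged 3358 and 2516 units in haploid cells, against 2607 and 4414 in diploid cells. All of these signals lay far above the lowest signal that was marked as well above background, which was 20.9 and 17.8 units on the haploid arrays and 25.4 and 21.7 on the diploid arrays.

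In all, 4 genes were not well above background on any array. They were Igf2, the fetal growth factor, Rtl1, a placental gene derived from a retrotransposon, Usp29, a ubiquitin-specific peptidase, and Rasgrf1, an exchange factor for RAS. Igf2 had 4.52 and 3.75 units in haploid cells, against 12.9 and 15.1 in diploid cells, all below the lowest signal marked as well above background on the same array, so no fold is given. Rtl1 had 4.23 and 3.59 units in haploid cells, against 5.10 and 7.66 in diploid cells. Usp29 had 4.69 and 10.8 units in haploid cells, against 5.46 and 10.3 in diploid cells. The 2 probes of Rasgrf1 ran from 3.95 to 13.7 units in haploid cells and from 4.88 to 24.9 in diploid cells. A signal below this mark sets only a bound and does not show that the gene is silent. Inpp5f, an inositol phosphatase gene, was detected on 1 array of each group (25.3 and 36.7 units in haploid cells, 17.1 and 40.6 in diploid cells).

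**Figure D1:**
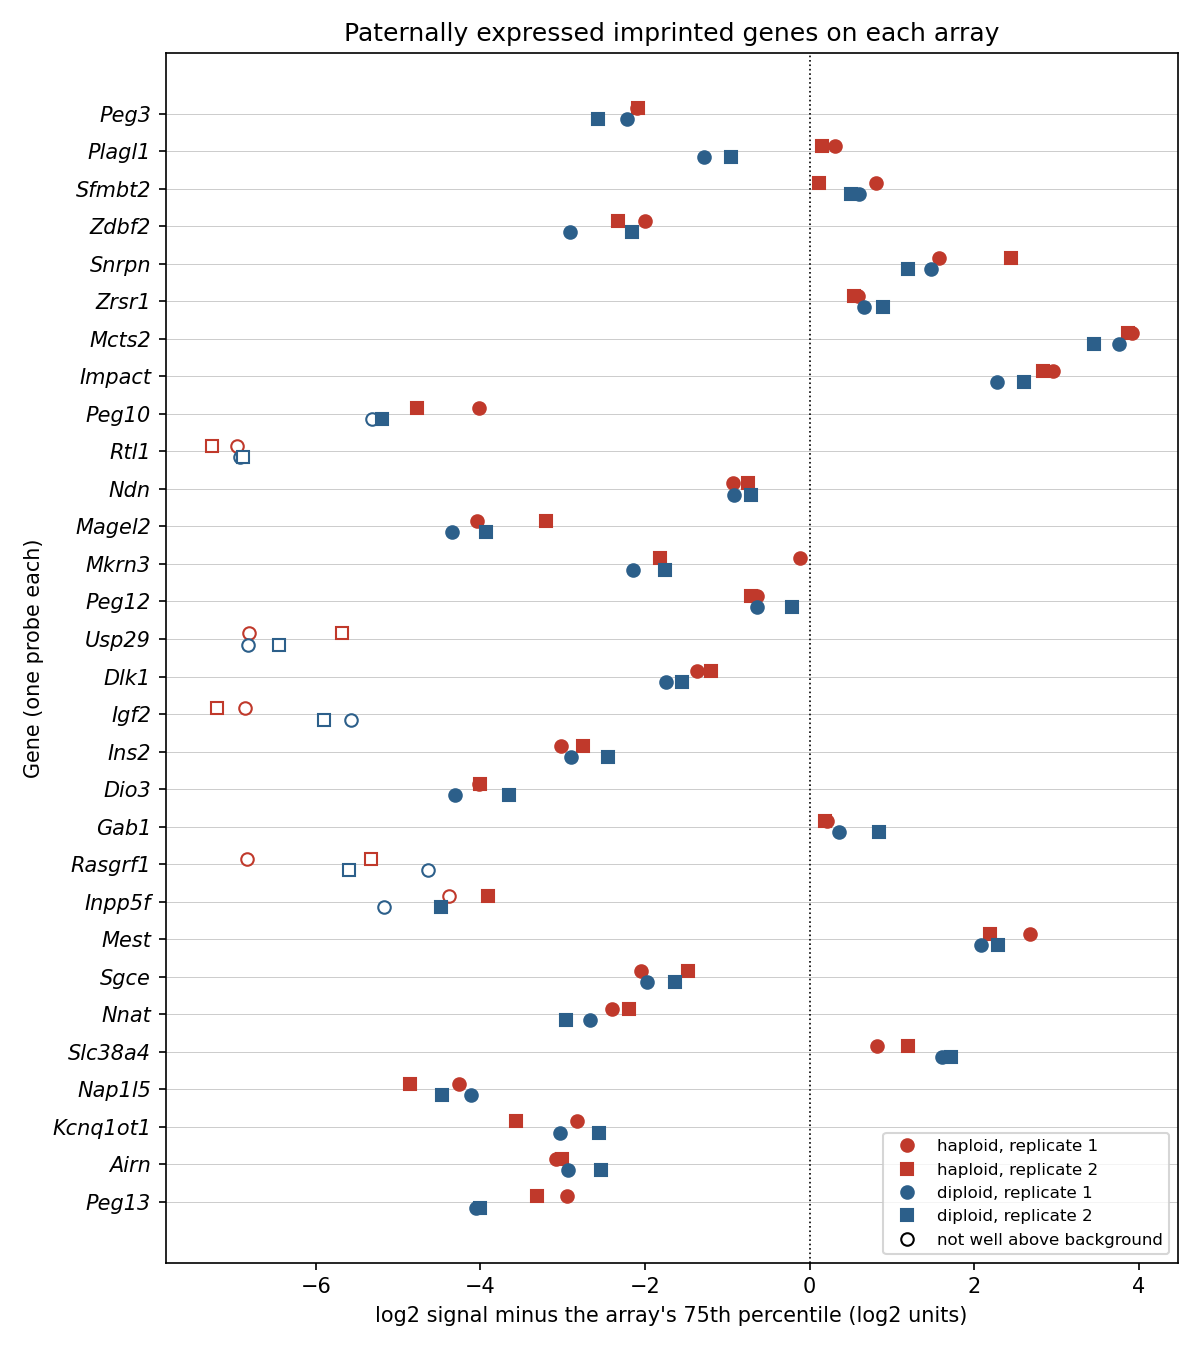
Log2 signal minus the array's 75th percentile (x axis, log2 units) of 1 probe for each of the 30 measured genes (rows). Red marks are the haploid arrays and blue marks the diploid arrays, circles replicate 1 and squares replicate 2, and open marks were not well above background. Igf2, Rtl1, Usp29 and Rasgrf1 have 4 open marks each, while the Plagl1 values fall into 2 groups that do not overlap.

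Haploid and diploid cells were then compared over all features, to ask which genes differ between the groups at all. Values were processed signals on the log2 scale, less the 75th percentile of their array (log2 units below), and a feature entered the test where either group had its probe marked as well above background on both arrays. Of 17962 features, 20 passed limma's test at an adjusted p of 0.05 (0.111%), 15 of them higher in haploid cells and 5 lower. Of all features 0.0835% passed with a positive and 0.0278% with a negative difference. Of the list, 25 genes entered the test and none passed in either direction. At an unadjusted p under 0.05 stood 5 of the 25, against 11.7% of all features. Differences were above 0 for 14 and below 0 for 11, with a median of 0.25 against 0.02 over all features. The groups did not overlap for 13 of the 25 genes, 9 with haploid cells above and 4 with haploid cells below, while 47.0% of all features did not overlap (26.0% above, 20.9% below). These counts hold Peg10, which entered only through its haploid arrays. Without it, 4 of 24 genes stood at an unadjusted p under 0.05, 8 with haploid cells above and 4 with haploid cells below did not overlap, and the median was 0.15. The median of all 25 was -0.34 with normexp background correction on all spots, against -0.10 over all features. That correction turned the sign of 10 of the 25 genes. Without diploid replicate 1, where 26 genes of the list entered, the median was 0.07, against -0.03 over all features. Across all features the difference followed brightness, with a median of -0.17 in the dimmest 10% and 0.22 in the brightest 10%.

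**Figure D2:**
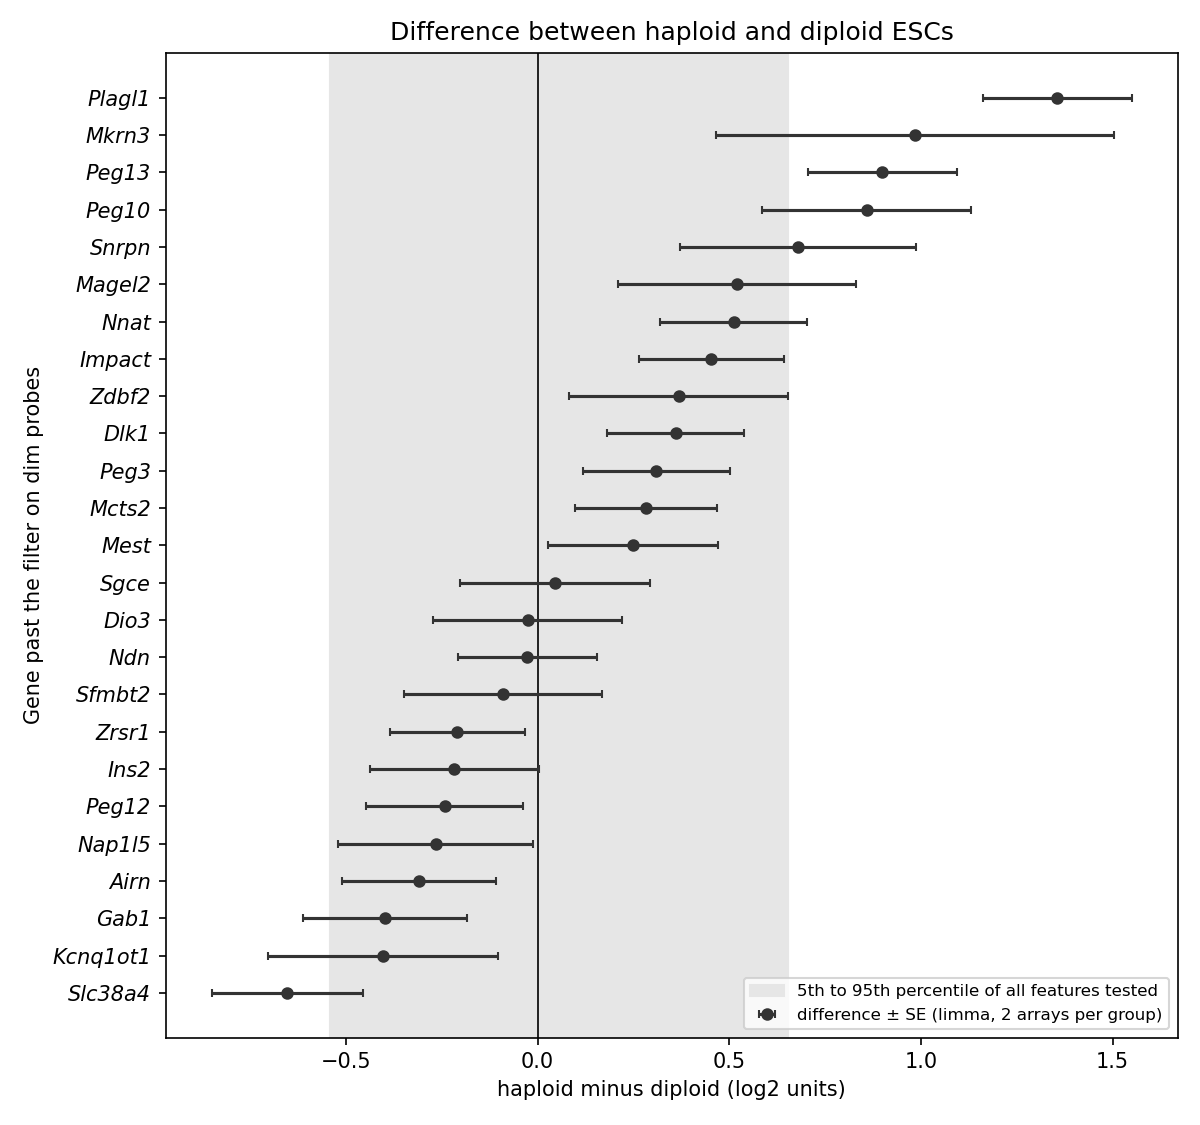
Difference between haploid and diploid ESCs (x axis, log2 units, haploid minus diploid) for the 25 genes that entered the test, ordered by size. Points are estimates and bars the SE from limma (n = 2 per group), and the grey band spans the 5th to 95th percentile of all features tested (-0.54 to 0.65). Plagl1, Mkrn3, Peg13, Peg10 and Snrpn lie above the band and Slc38a4 lies below it, and Peg10 entered only through its haploid arrays.

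Among the zinc finger and chromatin genes, Plagl1 showed the most positive difference of the list. Plagl1 encodes a zinc finger transcription factor that restrains proliferation and acts on other imprinted genes. Its values were 0.31 and 0.15 in haploid cells, against -1.29 and -0.96 in diploid cells, so that both haploid arrays lay above both diploid arrays. The difference was 1.36 ± 0.19 (SE, n = 2 per group), or 2.56-fold, with a limma adjusted p of 0.0848, which did not pass. A second probe behaved alike, with 0.05 and -0.16 in haploid cells, against -1.72 and -1.32 in diploid cells, a difference of 1.46. The other 2 probes did not share it. One had -3.20 and -2.86 in haploid cells, against -3.34 and -3.13 in diploid cells (difference 0.20), and the other -3.56 and -3.42, against -3.61 and -3.23 (difference -0.07). All 4 probes carry 1 RefSeq accession and were well above background on every array. With 1 array left out the difference of Plagl1 ran from 1.19 to 1.52. Plagl1 passed the limma test where only features well above background on all 4 arrays entered (adjusted p = 0.0342). So it did with robust fitting of a prior variance that follows brightness (adjusted p = 0.000245). It also passed with normexp after removal of spots with high local background (adjusted p = 0.0125), an alternative chosen after seeing the data. It did not pass in the other alternatives that kept all 4 arrays, among them normexp on all spots (adjusted p = 0.77). The difference was 0.74 with the mean of the 4 probes and 0.82 with normexp on all spots.

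Peg3, a zinc finger protein linked to growth and maternal care, had -2.10 and -2.08 in haploid cells, against -2.22 and -2.58 in diploid cells. The difference was 0.31 ± 0.19 (adjusted p = 0.554), and its other probe gave 0.25. Zdbf2, a zinc finger gene active in the embryo and brain, had -2.00 and -2.33, against -2.92 and -2.15 in diploid cells (0.37 ± 0.29, adjusted p = 0.623), while its other probe differed by -0.13. These Zdbf2 groups overlapped. Sfmbt2, a Polycomb group protein, had 0.81 and 0.11 in haploid cells and 0.60 and 0.50 in diploid cells (-0.09 ± 0.26, adjusted p = 0.904), with the diploid values between the haploid ones.

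None of the 4 measured genes of RNA processing and translation passed the test. Snrpn encodes SmN, a core protein of spliceosomal particles, and lies at the centre of the Prader-Willi imprinted domain. Its main probe had 1.58 and 2.45 in haploid cells, against 1.48 and 1.19 in diploid cells (0.68 ± 0.31, adjusted p = 0.456). Haploid replicate 2 stood above the other 3 arrays, and without it the difference was 0.24. The second Snrpn probe followed the same order, with 0.25 and 1.13 in haploid cells, against 0.20 and -0.15 in diploid cells. The remaining Snrpn probe, not well above background on diploid replicate 2, gave 0.94. Impact had 2.95 and 2.84 in haploid cells, against 2.28 and 2.60 in diploid cells (0.45 ± 0.19, adjusted p = 0.433), and its second probe gave 0.64. Mcts2 had 3.91 and 3.86, against 3.75 and 3.46 in diploid cells (0.28 ± 0.18, adjusted p = 0.572). Zrsr1, a splicing factor related to U2AF, had 0.58 and 0.54, against 0.66 and 0.89 in diploid cells (-0.21 ± 0.18, adjusted p = 0.648). For Snrpn, Impact and Mcts2 the haploid arrays lay above the diploid ones, and for Zrsr1 below them.

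None of the other genes measured in the Prader-Willi domain on chromosome 7 passed the test. Ndn, the MAGE family protein necdin of postmitotic neurons, had -0.94 and -0.75 in haploid cells, against -0.92 and -0.72 in diploid cells, nearly the same values (-0.03 ± 0.18, adjusted p = 0.96). Magel2, another MAGE family gene, had -4.04 and -3.20, against -4.34 and -3.93 in diploid cells (0.52 ± 0.31, adjusted p = 0.541). Like Snrpn it was highest on haploid replicate 2, without which the difference was 0.098, and without haploid replicate 1 it was 0.94. Peg12, of the FRAT family of WNT pathway regulators, had -0.64 and -0.71, against -0.64 and -0.22 in diploid cells (-0.24 ± 0.20, adjusted p = 0.648), and its other probe gave -0.42. Mkrn3, a makorin ubiquitin ligase gene, had -0.12 and -1.82 in haploid cells, against -2.15 and -1.76 in diploid cells (0.98 ± 0.52, adjusted p = 0.509). Haploid replicate 1 alone stood high on this probe. Without it the difference was 0.14, and without haploid replicate 2 it was 1.83. The second Mkrn3 probe did not set haploid replicate 1 apart, with -2.40 and -2.08 in haploid cells, against -2.48 and -2.14 in diploid cells (difference 0.07).

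**Figure D3:**
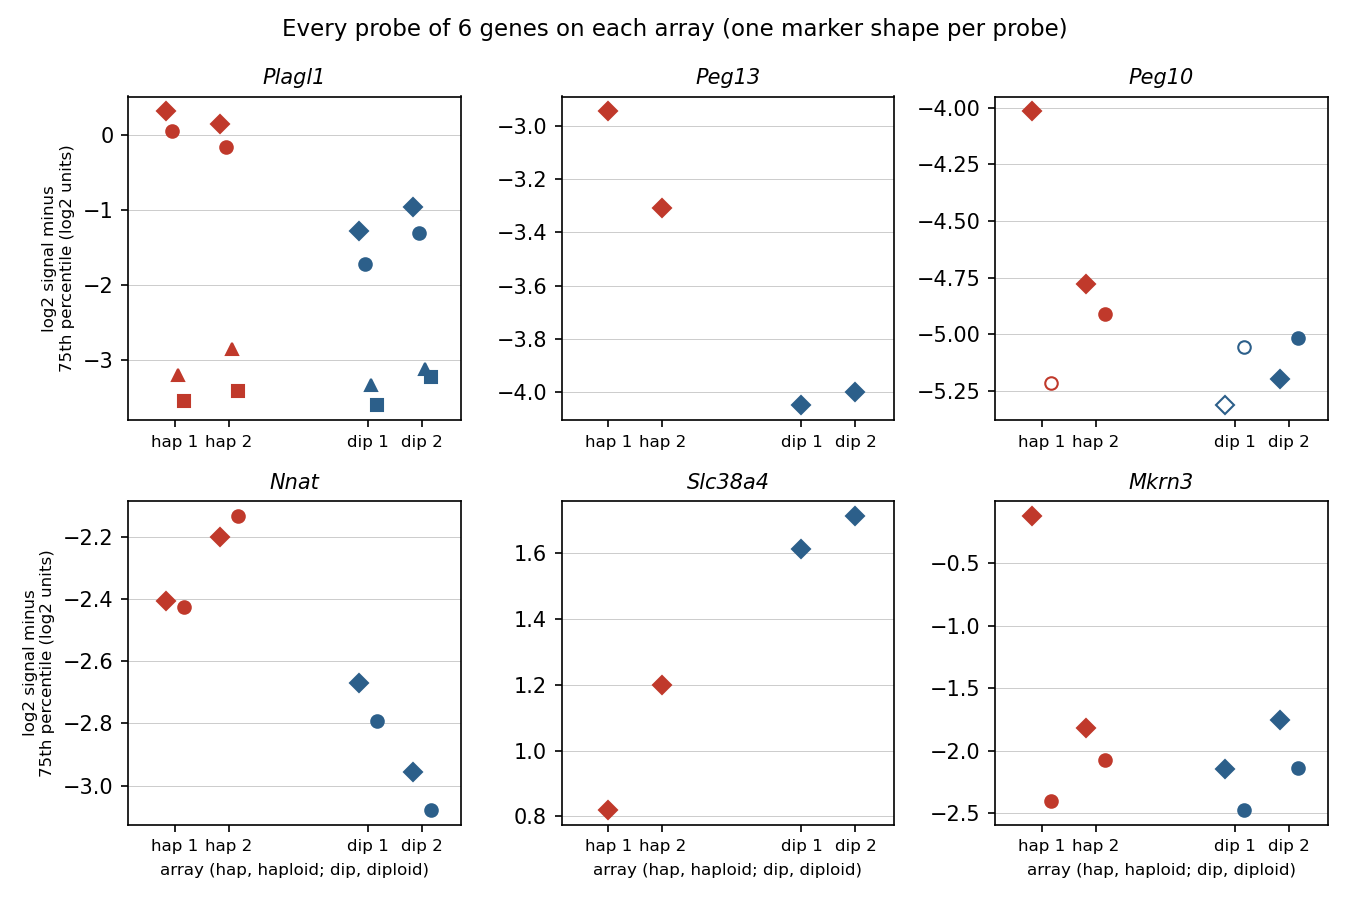
Log2 signal minus the array's 75th percentile (y axes, log2 units, a separate scale in each panel) on the haploid arrays (red, left) and diploid arrays (blue, right) for every probe of 6 genes. Marker shapes separate the probes of a gene, and open marks were not well above background. For Plagl1 the upper pair of probes separates the groups and the lower pair does not, and for Mkrn3 a single mark of haploid replicate 1 stands above the rest.

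Peg10 and Rtl1 derive from a retrotransposon's gag and pol genes and serve placental growth. Peg10 was dim, with -4.01 and -4.78 in haploid cells, against -5.31 and -5.20 in diploid cells, and it entered the test only through its haploid arrays, having been detected on 3 of 4 arrays. Since its entry rested on the group where it was higher, its difference of 0.86 is a description only. It was 0.12 without haploid replicate 1, 1.24 without haploid replicate 2, 0.29 with values raised to a common floor and -0.74 with normexp on all spots, and the other probe gave -0.03. Sgce, the epsilon-sarcoglycan gene that shares Peg10's control region, had -2.05 and -1.48 in haploid cells, against -1.97 and -1.64 in diploid cells (0.04 ± 0.25, adjusted p = 0.951). Its groups overlapped.

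Among membrane and other cellular genes the most negative difference was that of Slc38a4, a transporter of neutral and cationic amino acids. Its values were 0.82 and 1.20 in haploid cells, against 1.61 and 1.71 in diploid cells, both haploid arrays below both diploid arrays. The difference was -0.65 ± 0.20 (adjusted p = 0.297). With 1 array left out it ran from -0.84 to -0.46, and it passed only with robust fitting of the prior variance that follows brightness (adjusted p = 0.0395). Nnat, the proteolipid neuronatin of brain and endocrine cells, had -2.41 and -2.20, against -2.67 and -2.96 in diploid cells (0.51 ± 0.19, adjusted p = 0.386), and its second probe gave 0.66. With normexp on all spots Nnat differed by -0.54. Mest had 2.67 and 2.19 in haploid cells, against 2.08 and 2.28 in diploid cells (0.25 ± 0.22, adjusted p = 0.667), and its 3 probes ran from 0.25 to 0.31. Nap1l5, a nucleosome assembly family gene, had -4.26 and -4.86, against -4.12 and -4.47 in diploid cells (-0.27 ± 0.26, adjusted p = 0.694), and its other probe was detected on 1 array.

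Dlk1, Dio3 and Ins2, whose paternal copies carry the methylation, and the signalling gene Gab1 gave no difference that passed. Dlk1, a transmembrane inhibitor of adipocyte differentiation, had -1.37 and -1.20 in haploid cells, against -1.74 and -1.55 in diploid cells (0.36 ± 0.18, adjusted p = 0.491). Its second probe, detected on 2 arrays, gave -0.04. Dio3, which inactivates thyroid hormone, had -4.02 and -4.00, against -4.31 and -3.66 in diploid cells (-0.03 ± 0.25, adjusted p = 0.973). Ins2, an insulin gene closely similar to Ins1, had -3.03 and -2.76, against -2.90 and -2.45 in diploid cells (-0.22 ± 0.22, adjusted p = 0.708). Gab1, an adaptor of receptor tyrosine kinases with the histone-based imprint, had 0.21 and 0.18, against 0.35 and 0.84 in diploid cells (-0.40 ± 0.21, adjusted p = 0.515). All 3 genes with that imprint, Slc38a4, Gab1 and Sfmbt2, had differences below 0, with a median of -0.40, and for Sfmbt2 the sign turned without haploid replicate 2 (0.26) and with normexp on all spots (0.06).

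None of the 3 noncoding RNAs passed the test. Peg13 had -2.94 and -3.31 in haploid cells, against -4.05 and -4.00 in diploid cells, and the groups did not overlap. The difference was 0.90 ± 0.19 (adjusted p = 0.18), or 1.87-fold, and -0.58 with normexp on all spots. Kcnq1ot1, which silences neighbouring genes on the paternal chromosome, had -2.83 and -3.57, against -3.04 and -2.56 in diploid cells (-0.40 ± 0.30, adjusted p = 0.612). Its difference was -0.78 without haploid replicate 1 and -0.03 without haploid replicate 2. Airn, which does so at the Igf2r locus, had -3.09 and -3.01, against -2.94 and -2.54 in diploid cells (-0.31 ± 0.20, adjusted p = 0.569). Airn and Kcnq1ot1 each had a second probe that was detected on no array.

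In the list, 15 genes had over 1 probe, and for 10 of them all probes, those below the filter included, had 1 sign. For Plagl1, Peg10, Rasgrf1, Dlk1 and Zdbf2 the signs differed, and no Rasgrf1 probe was well above background. The spread between probes of a gene was widest for Plagl1, at 1.53 log2 units, and narrow for Mest (0.06), Peg3 (0.06) and Airn (0.03). With every probe fitted separately, 35 of 21783 probes passed (0.161%) and no probe of the list did.

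**Figure D4:**
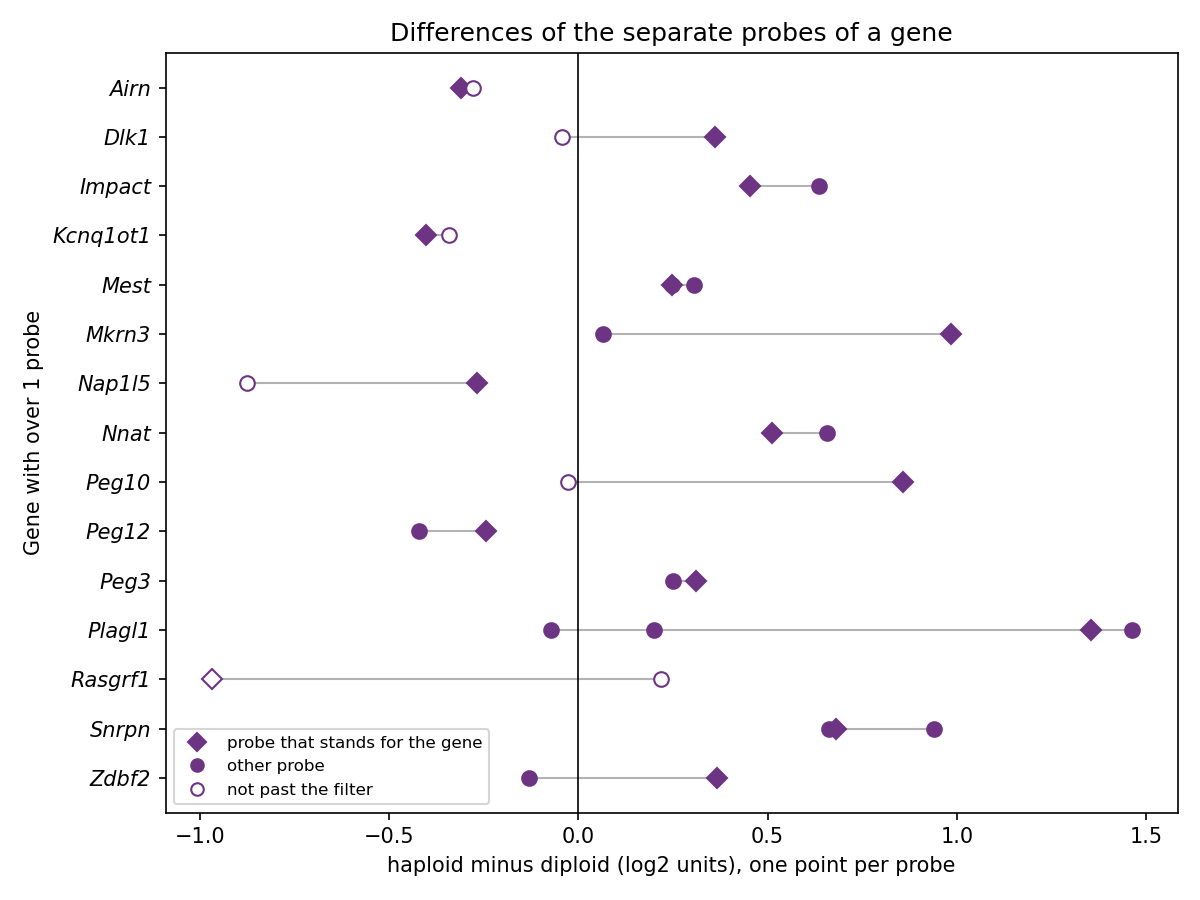
Difference between haploid and diploid ESCs (x axis, log2 units, haploid minus diploid) for each probe of the 15 genes with over 1 probe. Diamonds stand for the gene in the test, circles are its other probes, and open marks did not pass the filter on dim probes. The 3 Snrpn probes and the 3 Mest probes lie on 1 side of 0, while the Plagl1 probes run from -0.07 to 1.46.

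Genes of the same machinery were set beside the list. Of 31 maternally expressed imprinted genes named, 27 had a probe, 20 entered the test and none passed, with 13 differences above 0, 7 below and a median of 0.11. Meg3, the noncoding RNA opposite Dlk1, differed by -0.40 ± 0.20 (adjusted p = 0.49), and its other probes gave -0.40 and 2.26. Igf2r differed by -0.01 ± 0.18 and Grb10, a growth inhibitor, by 0.26 ± 0.19 (adjusted p = 0.982 and 0.612). Cdkn1c, a CDK inhibitor gene under the control region of Kcnq1ot1, differed by 1.17 ± 0.17 (adjusted p = 0.0921). Zim1 was detected on no array, Asb4 on 2, and H19 was not analysed here. Of 30 genes that keep or erase imprints 27 entered the test and none passed, 10 above 0 and 17 below, with a median of -0.11. Zfp57 differed by -0.43 ± 0.20, its cofactor Trim28 by -0.28 ± 0.17, the maintenance methyltransferase Dnmt1 by -0.03 ± 0.17, its partner Uhrf1 by 0.14 ± 0.18 and Dppa3, a protector of maternal methylation, by -0.04 ± 0.23 (adjusted p from 0.475 to 0.957).

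Markers of 4 other cell types were measured beside these values. None of their tested markers passed the test. Fibroblasts, which serve as feeder cells and carry a paternal genome, were read by 16 markers, of which 13 were detected on all 4 arrays and Col5a2 and Prrx1 on none. Their summed level, in multiples of the array's 75th percentile, was 13.2 and 10.3 in haploid cells, against 8.21 and 6.15 in diploid cells. Of the 13 tested, 9 had a difference above 0 and 4 below, with a median of 0.46. These differences ran from -0.71 (Cdh11, whose other probe gave 0.69) to 2.27 (S100a4, whose other probe gave 1.78). For 10 trophectoderm markers the summed level was 18.97 and 15.7 in haploid cells, against 13.9 and 14.5 in diploid cells. Of these markers 7 were detected on all 4 arrays and Elf5 on none, and 5 of 7 tested were above 0. The trophectoderm sum is mostly Tfap2c and Krt18 (differences -0.14 and 1.23). Neural markers, 4 of 8 detected on all arrays, summed to 6.36 and 5.70, against 4.53 and 4.0 in diploid cells, with Dcx detected on none. The neural sum is mostly Tubb3 (difference 0.57), and of 5 neural markers tested 3 were above 0 and 2 below. Only 1 of 8 primitive endoderm markers was detected on all 4 arrays, and their sums were 3.08 and 3.10, against 2.71 and 2.44 in diploid cells. That sum is mostly Lama1 (difference 0.31), while Gata6 and Gata4, which entered the test only through their diploid arrays, differed by -0.96 and -0.77. The 10 ESC markers summed to 260.2 and 255.9, against 249.4 and 219.4 in diploid cells. So the sums of ESC markers and of the 4 other cell types were all higher on both haploid arrays. Sums rest mostly on bright probes, and the brightest 10% of all features also had a median difference above 0 (0.22). Whether the sums differ beyond that trend was not tested. The summed level of the 30 genes of the list was 43.8 and 42.6 in haploid cells, against 36.4 and 36.9 in diploid cells. That sum is mostly Mcts2, Impact, Mest and Snrpn, and for Mcts2 signal from Mcts1 could not be separated. Among the 25 genes tested 14 differences were above 0 and 11 below. The part of these other cells in the signal of any gene of the list was not tested.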

How the data were processed

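Arrays were made from 0.2 ug of total RNA per sample, labelled with Cy3, per the labels' protocols. The deposited scanner files hold each spot's processed intensity, background-subtracted by Agilent Feature Extraction 11.0.1.1, per the file headers, which name the build mm9, and flags (other columns, 0 or 1). The authors' deposited value table holds linear intensity, and the sources used here do not give its scaling.

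Control and outlier spots were left out (121 to 168 of 43020 spots per array) and spots of a probe averaged. No spot was saturated. Probes were named through accessions and RefSeq genes (GRCm38.p6, 66.1% of probes). The text names every gene of the list, with values by array for those past the filter, and genes of 2 context lists and marker lists. Groups were compared with limma 3.58.1 (R 4.3.3, lmFit and eBayes, two-sided, Benjamini-Hochberg over all features), checked on simulated data. Python 3.11.15 with pandas 2.3.3 read the files. The list, the context lists and the tests were chosen with earlier results of these data known. The series' design text calls the samples of a group independent experiments, and p-values measure the spread between them. Same-numbered arrays of the 2 groups were not taken as pairs (correlation of their deviations across features 0.05). The scanner files hold no gene names and no mean spot signal, so probes were not matched by gene name, and normexp (offset 50) used the median spot signal. Alternatives covered background, scaling, filter, probe choice, prior variance, the replicate block and leaving out each array.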

Additional observations from a re-analysis of the deposited data

How the results depend on the processing

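The count of features past the test, 20 as reported, was 0 with cyclic loess, without a filter on dim probes, with a common floor and with normexp on all spots, 2 with the replicate number as a block, 4 with the value table and 5 with quantile normalization. It was 35 with probes fitted separately, 82 with detection required on all 4 arrays, 425 with robust fitting of a prior variance that follows brightness, and 123 with normexp after removal of spots with high local background, an alternative chosen after seeing the data. Leaving out 1 array gave 0 (diploid replicate 1) to 439 (haploid replicate 2). Under the replicate block no gene of the list passed, as without it.

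For the list, the median difference was -0.34 with normexp on all spots and 0.067 to 0.24 with 1 array left out. Over all features the median was -0.10 with normexp on all spots and -0.034 to 0.066 with 1 array left out. The number of genes whose groups did not overlap was 7 of 25 with normexp on all spots. It was 19 to 20 of 25 to 26 genes with 1 array left out, where 1 array faces 2. The share of all features under these settings is not given here, so these counts describe the processing and not the list. Detection on all arrays held for 24 to 26 genes under the other rules tried and for 24 to 25 on 3 arrays. Of 374 recomputed differences of single genes 25 changed sign, in 14 genes, and 11 genes kept their sign in the alternatives that gave them a value. With normexp on all spots Dlk1 was -0.10, Magel2 -0.67, Nnat -0.54, Peg10 -0.74, Peg13 -0.58, Peg3 -0.50, Sgce -0.38, Zdbf2 -0.34, Sfmbt2 0.058 and Zrsr1 0.0055. With normexp after removal of those spots Dio3 was 0.14 and Nap1l5 0.064. Dio3 was 0.13 and Ndn 0.0009 with cyclic loess, and Dio3 was 0.042 with quantile scaling and 0.050 in the value table. With 1 array left out Dio3 ran from -0.35 to 0.30, Ins2 from -0.44 to 0.0065, Nap1l5 from -0.56 to 0.032, Ndn from -0.13 to 0.0725, Sfmbt2 from -0.44 to 0.26, Sgce from -0.24 to 0.33 and Zdbf2 from -0.014 to 0.75. The cause of these turns was not tested. Signals near background limit what can be said of Igf2, Rtl1, Usp29, Rasgrf1 and Inpp5f, and 2 arrays per group limit the rest. A match of probes by gene name was not run, as the scanner files hold no such column.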
